A study of Mus musculus with 4 samples.

Results

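The genes described here encode the DNA replication machinery, the proteins that license origins, unwind the helix, copy the strands and load the sliding clamp. They were chosen by name, as 51 gene symbols, with earlier results of these data known. Of them, 50 were measured among 18193 genes in all. Chaf1a was not analysed here. Each gene was read from 1 probe set, the brightest of those annotated to that gene alone, and these were 50 of the 108 probe sets of the group. Gene expression was measured on 4 Affymetrix MOE430_2 arrays, of which 2 held RNA of CLP_RAGhigh cells and 2 of CLP_RAGlow cells. Both fractions belong to the common lymphoid progenitor (CLP), a bone marrow cell that gives rise to B, T and natural killer cells. They came from bone marrow of C57Bl6 mice aged 8 to 12 weeks, and the sample descriptions name them by high or low GFP. No treatment is named for either fraction, and the labels do not describe the GFP reporter or how many animals went into a sort. RNA of 2000 cells per sample was amplified before labelling. The replicates are called biological, but nothing says that they came from separate animals, so the p-values measure the spread between these samples, which may be technical.

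In a dividing cell, the origin recognition complex together with Cdc6 and Cdt1 loads a ring of MCM proteins onto DNA, and geminin (Gmnn) stops this loading once S phase has begun. The kinase of Cdc7 and Dbf4, with Cdc45, GINS and Mcm10, then turns the ring into a working helicase. Polymerase alpha with primase starts each strand, polymerases epsilon and delta extend it, and Pcna, placed by the RFC complex, holds them on the template. Many of these genes are transcribed at the entry to S phase under E2F factors, and lymphoid progenitors are known to divide often as they expand.

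Replication genes were on the whole lower in the CLP_RAGhigh cells, by modest amounts. Of the 50 genes, 45 had a lower mean and 5 a higher mean in CLP_RAGhigh, with a median log2 difference of -0.46 (CLP_RAGhigh minus CLP_RAGlow), while 49.4% of all genes tested had a lower mean and their median was 0.00. Rfc3, of the clamp loader, and Mcm10, a helicase activator, stood lowest, at -1.37 each, and the origin binding gene Orc4 highest, at 0.91. Both CLP_RAGhigh arrays lay below both CLP_RAGlow arrays for 23 of the 50 genes, or 46.0%, against 15.8% of all genes tested. They lay above for 2 genes, Orc4 and Prim2, where 15.4% of all genes did. In bulk samples like these, fewer dividing cells and less RNA of these genes per cell cannot be told apart.

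No single member passed the test across all genes. With limma and Benjamini-Hochberg adjustment over all genes, 0 of the 50 members had an adjusted p under 0.05, and 0% of all genes did. At an unadjusted limma p under 0.05, 7 members were lower in CLP_RAGhigh, or 14.0%, against 2.94% of all genes tested, and 1 member was higher, against 2.35% of all genes. The 7 were Rfc3, Gmnn, Pcna, Rpa3, Mcm8, Mcm5 and Mcm10, and the 1 was Orc4. The count of 7 changed whichever array was left out. Each of those fits has a lone array in 1 group, which is assumed to vary like the 2 arrays of the other group. Their counts rest on the spread of that other group only and are not given. Members' values are described below as higher or lower means with their standard errors.

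**Figure D1:**
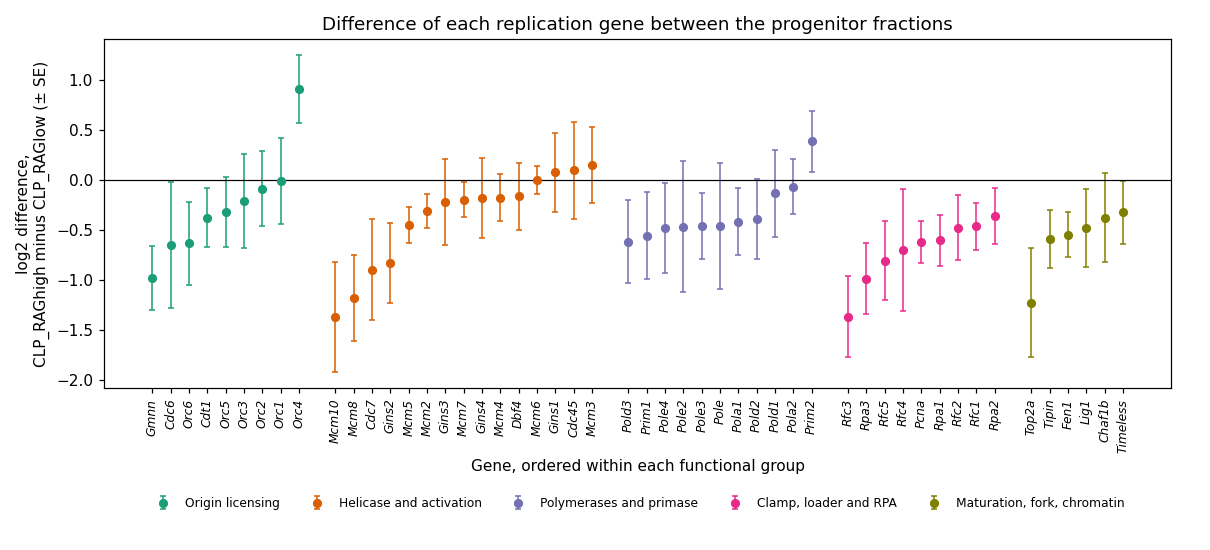
Log2 difference (CLP_RAGhigh minus CLP_RAGlow, vertical axis) of each of the 50 genes (horizontal axis), in 5 functional groups marked by colour, with bars of 1 standard error from limma. The clamp, loader and RPA genes and the maturation, fork and chromatin genes all lie below 0, and Orc4, at 0.91, is the highest point.

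The members did not move by the same amount on the arrays of a group. The lowest of the 4 values was on CLP_RAGhigh replicate 1 for 29 members, on CLP_RAGhigh replicate 2 for 14 and on a CLP_RAGlow array for the other 7. The highest value was on CLP_RAGlow replicate 2 for 24 members. The median deviation of the members from each gene's own mean was -0.36 on CLP_RAGhigh replicate 1 and -0.02 on CLP_RAGhigh replicate 2, against 0.16 for replicate 1 and 0.30 for replicate 2 of CLP_RAGlow. The order of the 4 arrays followed the groups, with CLP_RAGhigh replicate 2 and CLP_RAGlow replicate 1 next to each other in the middle. The median gap between replicates was 0.49 for the members in CLP_RAGhigh and 0.31 in CLP_RAGlow, where all genes tested had gaps of 0.34 and 0.25.

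Leaving out 1 array kept the direction of the group but not its size. Lower means were found for 35 of 50 members without CLP_RAGhigh replicate 1, 43 without CLP_RAGhigh replicate 2, 45 without CLP_RAGlow replicate 1 and 37 without CLP_RAGlow replicate 2. In the same order of fits, 44.6%, 56.3%, 44.9% and 53.4% of all genes tested had a lower mean. The median difference of the members ran from -0.25, without CLP_RAGhigh replicate 1, to -0.54, without CLP_RAGhigh replicate 2. Between the middle 2 arrays of that order, CLP_RAGhigh replicate 2 and CLP_RAGlow replicate 1, 33 members were lower in CLP_RAGhigh and the median was -0.18. That pair was chosen after the values were seen, sets a replicate 2 against a replicate 1 and has no test. Of the 50 genes, 26 were lower whichever array was left out, Orc4 and Prim2 were higher in each of these fits, and 22 changed sign in at least 1. Of the 28 that kept their sign, 8 stayed within 1.5 times their value over all arrays in every such fit, namely Orc4, Pola1, Pcna, Rfc1, Rfc3, Rpa2, Rpa3 and Tipin, and 20 did not.

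**Figure D2:**
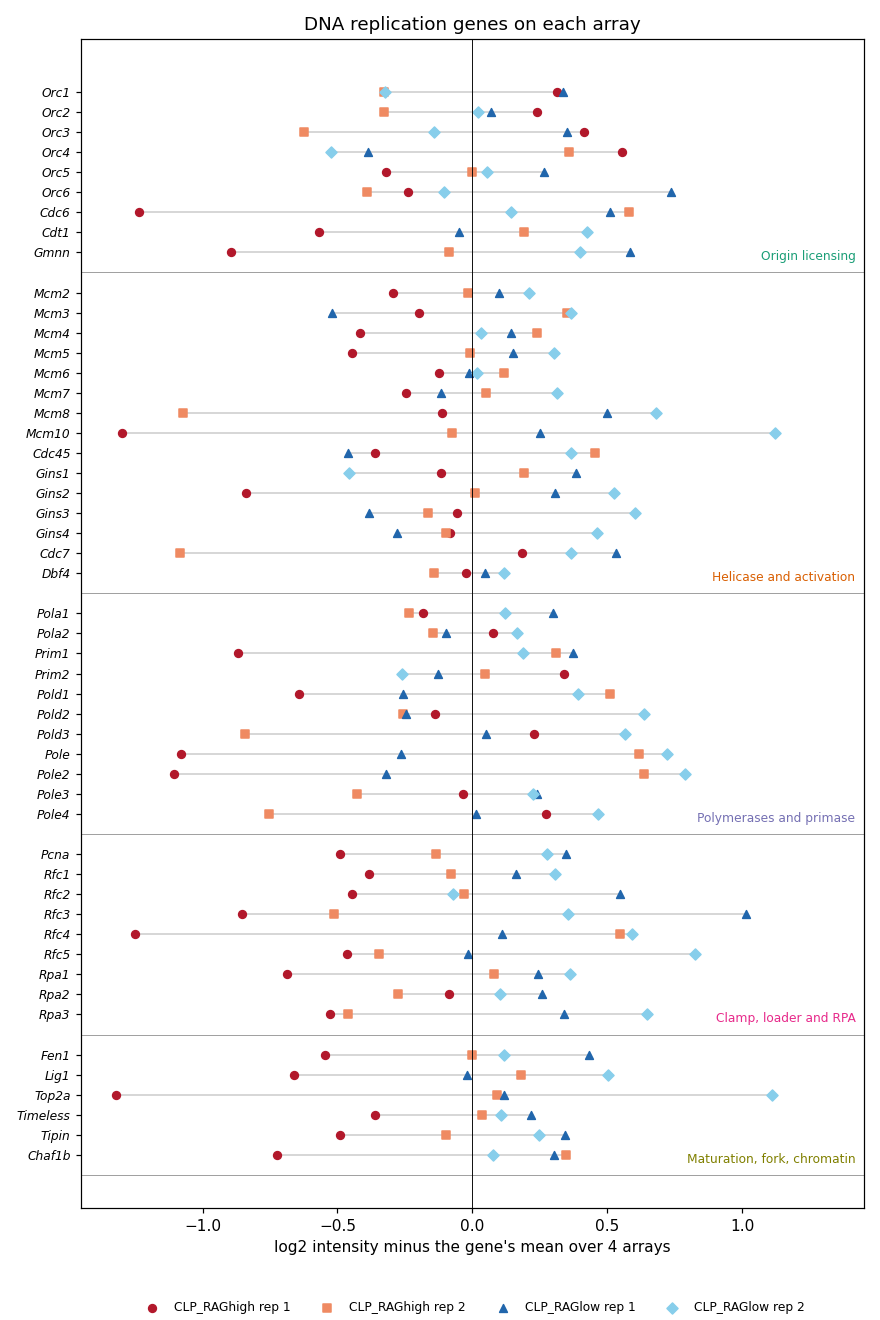
Log2 intensity of each replication gene on each of the 4 arrays, as the deviation from that gene's mean (horizontal axis), with genes by functional group (vertical axis). Red and orange points are CLP_RAGhigh and blue points CLP_RAGlow; CLP_RAGhigh replicate 1 holds the lowest value of 29 genes.

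RNA quality and immediate early gene intensities also differed between these arrays. The ratio of 3' to 5' signal of the Actb control, which grows as transcripts are shortened, was 16.2 and 9.62 on the CLP_RAGhigh arrays against 13.5 and 24.5 on the CLP_RAGlow arrays. Summed intensities of 19 immediate early genes, which respond to handling, were 8453 on CLP_RAGhigh replicate 1 and 1813 on replicate 2, against 1904 and 1673 on the CLP_RAGlow arrays. These sums weigh bright genes most, and Fos was at a log2 intensity of 12.27 on CLP_RAGhigh replicate 1 and at most 7.28 elsewhere. The median deviation of the 19 genes was 0.78 and -0.51 on the CLP_RAGhigh arrays, against -0.18 and -0.24 on the CLP_RAGlow arrays. The granulocyte genes Ngp, S100a8, S100a9 and Ltf were lowest on CLP_RAGlow replicate 2, with Ngp at a log2 intensity of 3.80 there and from 9.01 to 10.38 on the other 3 arrays. On that array Mpo, at 11.03, and Csf1r, at 9.54, were at their highest, and the other 4 genes of the list, Prtn3, Lyz2, Ctsg and Elane, were not at their lowest. The summed intensities of 10 granulocyte and monocyte genes were 4176 and 4337 in CLP_RAGhigh, against 6009 and 3269 in CLP_RAGlow. The progenitor markers Flt3 and Il7r were bright on all 4 arrays, with lowest log2 intensities of 10.65 and 10.24. Of the 6 progenitor markers measured, 3 were higher and 3 lower in CLP_RAGhigh. Both CLP_RAGhigh arrays lay below both CLP_RAGlow arrays for Cd34, at -1.12, and Cd27, at -0.43, and above them for Il7r, at 0.81, and Dntt, at 0.06. Kit, at -0.28, and Flt3, at 0.14, overlapped. Of 6 T-cell markers, Cd3g, Cd3d and Cd3e reached at most 2.63, 3.87 and 4.82, Cd8a and Cd4 at most 4.96 and 5.07, and Lat lay between 7.08 and 8.35, with summed intensities of 229 and 434 in CLP_RAGhigh, against 305 and 280 in CLP_RAGlow. Erythroid markers had a higher mean in CLP_RAGhigh for 5 of 6 genes, led by Klf1 at 2.02, but the groups overlapped for all except Klf1. Their summed intensities were 367 and 167 in CLP_RAGhigh, against 143 and 93.6 in CLP_RAGlow. Among them Car1 was at 7.15 on CLP_RAGhigh replicate 1 and at most 4.30 on the other arrays. B-lineage markers had a higher mean in CLP_RAGhigh for 7 of 7 genes measured, with summed intensities of 3219 and 3073 in CLP_RAGhigh, against 472 and 561 in CLP_RAGlow. The part of each of these in the replication gene values was not tested.

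Promoters of the members often held an E2F motif. The motifs searched were TTTCCCGC, TTTGGCGC, TTTCGCGC and TTTGCCGC, on both strands, in RefSeq windows of 300 bases (build GRCm38.p6) from 250 bases before the start site. Windows were found for 41 of the 50 members, and 17 of these genes, or 41.5%, had a match, in 18 of 51 windows (35.3%). Of all windows in the table, 744 of 32851, or 2.26%, held a match, and of 20 mitotic genes 1 did. The windows of members were richer in G and C, with a median of 62.3% against 52.7% for all windows. A match is a description of the letters and not a site. The 17 members with a match had a median difference of -0.42, with 16 lower, and the 24 without a match had -0.46, with 22 lower. These medians were not compared by a test.

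The windows of 4 members are shown, those with the smallest limma p that hold a match, with the matched bases in capitals and each sequence written 5' to 3' along the gene's strand. They are Rfc3 on the minus strand at chr5:151651159-151651458, Mcm8 on the plus strand at chr2:132815891-132816190, Mcm5 on the plus strand at chr8:75109259-75109558 and Pold3 on the minus strand at chr7:100121453-100121752.
Rfc3: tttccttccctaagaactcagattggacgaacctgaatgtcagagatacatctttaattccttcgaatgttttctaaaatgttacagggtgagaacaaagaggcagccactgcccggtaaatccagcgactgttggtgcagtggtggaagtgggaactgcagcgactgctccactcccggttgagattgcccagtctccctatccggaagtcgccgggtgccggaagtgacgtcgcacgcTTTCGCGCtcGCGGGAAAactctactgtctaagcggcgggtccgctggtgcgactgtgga
Mcm8: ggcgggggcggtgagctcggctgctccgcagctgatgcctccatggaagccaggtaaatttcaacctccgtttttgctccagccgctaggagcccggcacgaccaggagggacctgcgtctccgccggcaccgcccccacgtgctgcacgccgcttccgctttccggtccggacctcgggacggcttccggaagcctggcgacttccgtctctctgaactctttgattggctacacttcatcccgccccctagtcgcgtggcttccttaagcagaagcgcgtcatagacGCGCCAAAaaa
Mcm5: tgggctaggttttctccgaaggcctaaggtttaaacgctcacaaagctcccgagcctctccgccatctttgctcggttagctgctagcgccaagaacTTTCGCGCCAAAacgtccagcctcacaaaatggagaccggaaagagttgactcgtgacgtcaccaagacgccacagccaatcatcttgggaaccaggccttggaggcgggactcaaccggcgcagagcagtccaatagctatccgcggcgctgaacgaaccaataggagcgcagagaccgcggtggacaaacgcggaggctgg
Pold3: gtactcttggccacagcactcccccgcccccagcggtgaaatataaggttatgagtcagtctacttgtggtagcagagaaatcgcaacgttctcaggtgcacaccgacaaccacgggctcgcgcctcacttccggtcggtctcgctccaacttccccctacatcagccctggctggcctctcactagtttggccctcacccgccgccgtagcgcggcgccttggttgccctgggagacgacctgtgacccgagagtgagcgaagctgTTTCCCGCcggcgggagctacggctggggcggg
In Rfc3 a TTTCGCGC began 10 bases before the start site and a reversed TTTCCCGC began at the start site. In Mcm5 a TTTCGCGC and a reversed TTTGGCGC overlapped, beginning 153 and 149 bases before the start site, so that the capitals form a single run. Mcm8 had a reversed TTTGGCGC beginning 39 bases after the start site, and Pold3 a TTTCCCGC beginning 17 bases after it. Pcna, Rpa3, Orc4 and Mcm10 had windows with no match, which says only that these letters are not in them.

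The origin licensing genes were lower for 8 of 9 members, with a median of -0.32, and Orc4 and Gmnn stood at opposite ends. Without CLP_RAGhigh replicate 2, 5 of the 9 were lower. Groups did not overlap for 3 of the lower genes, or 33.3%, against 15.8% of all genes tested. Gmnn, the geminin gene, had log2 intensities of 8.88 and 9.69 in CLP_RAGhigh, against 10.36 and 10.18 in CLP_RAGlow. Both CLP_RAGhigh arrays lay below both CLP_RAGlow arrays, with a difference of -0.98 ± 0.32 (SE, n = 2 per group), a 1.98-fold higher level in CLP_RAGlow, with a limma adjusted p of 0.869. Orc4, a subunit of the origin recognition complex, went the other way, at 7.73 and 7.53 in CLP_RAGhigh, against 6.79 and 6.65 in CLP_RAGlow. Its groups did not overlap, and the difference was 0.91 ± 0.34 (limma adjusted p = 0.926). The brighter 3 of the 4 Orc4 probe sets were higher in CLP_RAGhigh and the dimmest was at -0.09, so that their average was 0.56.

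Among the other subunits of the origin recognition complex, the brightest probe sets of Orc1, Orc2 and Orc3 lay near 0 and their dimmer ones were lower. Orc1, the largest subunit, was at -0.01 ± 0.43, Orc2 at -0.09 ± 0.38 and Orc3 at -0.21 ± 0.47. All 3 had overlapping groups, and each changed sign when CLP_RAGhigh replicate 2 was left out. Orc5, at -0.32 ± 0.35, and Orc6, at -0.63 ± 0.42, had both CLP_RAGhigh arrays below both CLP_RAGlow arrays, and ran from -0.16 to -0.48 and from -0.21 to -1.05 when 1 array was left out. The second probe set of Orc1 was at -0.94, those of Orc2 at -0.83 and -0.53, and those of Orc3 at -0.995 and -0.42. With probe sets averaged, Orc1 was at -0.48, Orc2 at -0.48 and Orc3 at -0.54. For the brightest probe set of Orc1 the 95% interval of the difference ran from -1.08 to 1.05, so a change of either sign up to about that size could not be seen with 4 arrays.

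The MCM loaders Cdc6 and Cdt1 were lowest on CLP_RAGhigh replicate 1. Cdc6, which recruits Cdt1 to origins, had log2 intensities of 6.58 and 8.40 in CLP_RAGhigh, against 8.33 and 7.96 in CLP_RAGlow. CLP_RAGhigh replicate 2 was the highest of the 4 arrays, and the mean difference of -0.65 ± 0.63 became 0.25 without CLP_RAGhigh replicate 1. Cdt1 was at 10.76 and 11.52 in CLP_RAGhigh, against 11.28 and 11.75 in CLP_RAGlow, a difference of -0.38 ± 0.29 with overlapping groups. It was 0.00 without CLP_RAGhigh replicate 1, and the average of its probe sets was -0.22. The gap between its fold and that of its inhibitor Gmnn was not tested.

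The subunits of the core MCM ring stayed close together. Mcm2, Mcm4, Mcm5, Mcm6 and Mcm7 differed by -0.31 ± 0.17, -0.18 ± 0.24, -0.45 ± 0.18, -0.00 ± 0.14 and -0.20 ± 0.18, and Mcm3 by 0.15 ± 0.38. Mcm5 had log2 intensities of 11.12 and 11.55 in CLP_RAGhigh, against 11.71 and 11.87 in CLP_RAGlow, with no overlap between the groups (limma adjusted p = 0.928). Its second probe set, at -0.62, went the same way, and the dimmest was at -0.04. Mcm2 also had both CLP_RAGhigh arrays below both CLP_RAGlow arrays. Mcm3 had 8.96 on CLP_RAGlow replicate 1, its lowest value, beside 9.29 and 9.84 in CLP_RAGhigh and 9.85 on CLP_RAGlow replicate 2. All 5 Mcm3 probe sets, which share its RNA, had a higher mean in CLP_RAGhigh, from 0.07 to 0.54. Those of Mcm2, Mcm4, Mcm5, Mcm6 and Mcm7 were all lower. Mcm3 turned to -0.29 without CLP_RAGlow replicate 1 and to -0.12 without CLP_RAGhigh replicate 2. Mcm4, Mcm6 and Mcm7 also changed sign when a single array was left out. For Mcm6 the 95% interval ran from -0.35 to 0.35, the narrowest of the members, and its sign changed when the arrays were centred on their medians (0.06).

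Mcm8 and Mcm10, which are not subunits of the core ring, differed more. Mcm8, which works with Mcm9 in recombination repair, had log2 intensities of 5.42 and 4.46 in CLP_RAGhigh, against 6.03 and 6.21 in CLP_RAGlow. Mcm10, needed to activate the helicase, had 5.94 and 7.16 in CLP_RAGhigh, against 7.49 and 8.36 in CLP_RAGlow. Neither overlapped between groups, and the differences were -1.18 ± 0.43 (limma adjusted p = 0.917) and -1.37 ± 0.55 (limma adjusted p = 0.928). When 1 array was left out, Mcm8 ran from -0.70 to -1.66 and Mcm10 from -0.76 to -1.98. Mcm8 was -0.68 with an offset of 32 added before log2. Mcm10 was -0.75 with its 3 probe sets averaged, all of which were lower in CLP_RAGhigh.

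Cdc45 and the GINS genes, which join the MCM ring to form the moving helicase, did not share a direction. Gins2 had log2 intensities of 7.22 and 8.07 in CLP_RAGhigh, against 8.36 and 8.58 in CLP_RAGlow, a difference of -0.83 ± 0.40 with no overlap. Gins1, Gins3 and Gins4 were at 0.08 ± 0.40, -0.22 ± 0.43 and -0.18 ± 0.40, and Cdc45 at 0.10 ± 0.48, each with overlapping groups. With probe sets averaged, Gins3 was at -0.56. The 4 proteins encoded by the GINS genes form 1 complex, yet Gins2 alone of them had groups that did not overlap. Whether Gins2 differed from the other 3 was not tested. Cdc7, the kinase that fires origins, had 7.47 and 6.20 in CLP_RAGhigh, against 7.82 and 7.65 in CLP_RAGlow, and a difference of -0.90 ± 0.50, which was -0.54 with its probe sets averaged, -0.26 without CLP_RAGhigh replicate 2 and -1.53 without CLP_RAGhigh replicate 1. Its activator Dbf4 was at -0.16 ± 0.33, with groups that just did not overlap and a second probe set at 0.39. Over the 15 genes of the helicase and its activation, 12 were lower in CLP_RAGhigh and 3 were higher, with a median of -0.20.

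Polymerase and primase genes were lower for 10 of 11 members, with a median of -0.46, but the groups overlapped for 8 of the 11. Both CLP_RAGhigh arrays lay below both CLP_RAGlow arrays for 2 genes, or 18.2%, near the 15.8% of all genes tested. They lay above for 1, Prim2, where 15.4% of all genes did. These counts are not a result about the group. Without CLP_RAGlow replicate 2, 5 of the 11 were lower and the median turned to 0.033, and without CLP_RAGhigh replicate 1, 6 were lower and the median was -0.18. At an unadjusted limma p under 0.05, 0 of the 11 passed, where 2.94% of all genes tested were lower and 2.35% higher. Pole, the catalytic subunit of polymerase epsilon, had log2 intensities of 7.87 and 9.57 in CLP_RAGhigh, against 8.68 and 9.67 in CLP_RAGlow. Pole2, its second subunit, had 8.06 and 9.81 in CLP_RAGhigh, against 8.85 and 9.96 in CLP_RAGlow. In both genes replicate 2 was above replicate 1 in each fraction, and the differences, -0.46 ± 0.63 and -0.47 ± 0.66, became 0.39 and 0.40 without CLP_RAGhigh replicate 1. Pole3 and Pole4, the small histone-fold subunits, were at -0.46 ± 0.33 and -0.48 ± 0.45, and Pole3 had no overlap between its groups. With probe sets averaged Pole4 was at -0.085.

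For polymerase delta, Pold3, an accessory subunit, had the largest difference of the 11. It had log2 intensities of 9.59 and 8.52 in CLP_RAGhigh, against 9.41 and 9.93 in CLP_RAGlow, and differed by -0.62 ± 0.42 with overlapping groups. Without CLP_RAGhigh replicate 2 the difference was -0.08, so its size rested on that array. The catalytic subunit Pold1 was at -0.13 ± 0.43, and Pold2 at -0.39 ± 0.40. The polymerase alpha genes Pola1 and Pola2 were at -0.42 ± 0.34 and -0.07 ± 0.28, and Pola1 had both CLP_RAGhigh arrays below both CLP_RAGlow arrays. With probe sets averaged Pola2 was at -0.49.

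The 2 primase genes pointed in opposite directions. Prim2, the large subunit, had log2 intensities of 8.65 and 8.36 in CLP_RAGhigh, against 8.19 and 8.05 in CLP_RAGlow, and all 3 of its probe sets were higher in CLP_RAGhigh, from 0.05 to 0.79. Prim1, which makes the RNA primer, had 8.09 and 9.27 in CLP_RAGhigh, against 9.33 and 9.15 in CLP_RAGlow. Prim2 differed by 0.39 ± 0.31, with no overlap, and Prim1 by -0.56 ± 0.44, with overlap. The difference of Prim1 was 0.03 without CLP_RAGhigh replicate 1. Neither gene had an unadjusted limma p under 0.05.

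The clamp, clamp loader and single-strand binding genes were the functional group with the lowest median, -0.62, and all 9 had a lower mean in CLP_RAGhigh. Groups did not overlap for 7 of the 9, or 77.8%, against 15.8% of all genes tested. Pcna, the sliding clamp, had log2 intensities of 9.70 and 10.06 in CLP_RAGhigh, against 10.54 and 10.47 in CLP_RAGlow. The gap between the groups exceeded that between replicates, with a difference of -0.62 ± 0.21 (limma adjusted p = 0.886), and it ran from -0.45 to -0.80 over the fits that left out 1 array. Rfc3, a small subunit of the clamp loader, had 5.13 and 5.47 in CLP_RAGhigh, against 7.0 and 6.34 in CLP_RAGlow. It was 2.58-fold higher in CLP_RAGlow, with a difference of -1.37 ± 0.40 (limma adjusted p = 0.813), and its second probe set was at -1.63. With an offset of 32 before log2 it was -0.91.

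The other clamp loader subunits were closer to 0 than Rfc3. Rfc1, the large subunit, was at -0.47 ± 0.23, Rfc2 at -0.48 ± 0.33 and Rfc5 at -0.81 ± 0.40. Dimmer probe sets of Rfc1 were at 0.11 and -1.03, and the average of its probe sets was -0.46. Rfc5 had log2 intensities of 7.51 and 7.63 in CLP_RAGhigh, against 7.96 and 8.80 in CLP_RAGlow. Rfc4 had 7.59 and 9.39 in CLP_RAGhigh, against 8.95 and 9.44 in CLP_RAGlow, and its difference of -0.70 ± 0.61 was 0.20 without CLP_RAGhigh replicate 1. Rfc4 thus changed sign on the removal of a single array, while Rfc1, Rfc2, Rfc3 and Rfc5 did not.

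RPA coats single-stranded DNA as a trimer, and its 3 genes all had both CLP_RAGhigh arrays below both CLP_RAGlow arrays. Rpa1, the large subunit, had log2 intensities of 10.94 and 11.71 in CLP_RAGhigh, against 11.87 and 11.99 in CLP_RAGlow. Rpa2 had 8.55 and 8.36 in CLP_RAGhigh, against 8.89 and 8.74 in CLP_RAGlow. Rpa3, the smallest subunit, had 6.13 and 6.20 in CLP_RAGhigh, against 7.0 and 7.31 in CLP_RAGlow. The differences were -0.61 ± 0.25, -0.36 ± 0.28 and -0.99 ± 0.35 (limma adjusted p = 0.899 for Rpa3). The Rpa3 replicates lay close together in CLP_RAGhigh. Rpa3 ranged from -0.84 to -1.14 when 1 array was left out, so that its size depended little on a single array.

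The genes that finish and protect the new strands were lower for 6 of 6 measured members, with a median of -0.51, which was -0.20 without CLP_RAGhigh replicate 1. Top2a, the topoisomerase that untangles replicated DNA and peaks late in the cycle, had log2 intensities of 8.75 and 10.16 in CLP_RAGhigh, against 10.18 and 11.18 in CLP_RAGlow. CLP_RAGhigh replicate 2 and CLP_RAGlow replicate 1 were nearly level, and the difference of -1.23 ± 0.54 (limma adjusted p = 0.949) was -0.52 without CLP_RAGhigh replicate 1 and -0.73 without CLP_RAGlow replicate 2. With the 3 Top2a probe sets averaged it was -0.80. Fen1, which trims the flaps of Okazaki fragments, had 10.65 and 11.19 in CLP_RAGhigh, against 11.62 and 11.31 in CLP_RAGlow, a difference of -0.55 ± 0.23. Lig1, which seals the nicks, was at -0.48 ± 0.39 with overlapping groups, and at -0.060 without CLP_RAGhigh replicate 1.

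Timeless and Tipin, partners that steady the fork, were lower without overlap, at -0.32 ± 0.31 and -0.59 ± 0.29. The second Timeless probe set was at -1.28, and the average of both at -0.80. Tipin had log2 intensities of 8.36 and 8.75 in CLP_RAGhigh, against 9.19 and 9.10 in CLP_RAGlow. Chaf1b, a subunit of the factor that deposits histones behind the fork, was at -0.38 ± 0.44 and turned to 0.16 without CLP_RAGhigh replicate 1, and the average of its probe sets was -0.25.

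For the members as a whole, the direction did not rest on the choice of the brightest probe set. Of the 58 probe sets not chosen, 43 had a lower mean in CLP_RAGhigh and 15 a higher one, with a median of -0.29. Of the 37 members with several probe sets, all of them were lower in 26, all were higher in Mcm3, Prim2 and Cdc45, and 8 had probe sets in both directions. With the probe sets of each gene averaged, 45 members were again lower and the median was -0.49. Probe sets of a gene share its RNA and are not replicates.

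Replication genes outside the 51 also had lower means for the most part. Of 37 measured, among them checkpoint mediators, histone chaperones and S-phase cyclins, 27 were lower in CLP_RAGhigh and 10 were higher, with a median of -0.26. At an unadjusted limma p under 0.05 there was 1 lower gene, Ccna2, the cyclin of S phase and early mitosis, and 0 higher. That is 2.70% of the list, near the 2.94% of all genes tested, and so is not a result about the list. Ccna2 had log2 intensities of 4.84 and 6.19 in CLP_RAGhigh, against 6.93 and 7.92 in CLP_RAGlow, and a difference of -1.91 ± 0.60, which was -1.23 without CLP_RAGhigh replicate 1.

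Enzymes of deoxynucleotide supply, which feed the polymerases, were lower for 8 of 11 genes, with a median of -0.37, and all 8 had non-overlapping groups, or 72.7%, against 15.8% of all genes tested. Tk1, the thymidine kinase of the salvage pathway made in S phase, had the smallest p of the list. It had log2 intensities of 5.45 and 5.27 in CLP_RAGhigh, against 7.93 and 7.77 in CLP_RAGlow. The difference was -2.49 ± 0.35 (limma adjusted p = 0.303), larger than that of any of the 50 members, and it ran from -2.40 to -2.58 when 1 array was left out. Dck, another salvage kinase, which lymphoid cells use to phosphorylate deoxycytidine, went the other way, with 10.75 and 10.67 in CLP_RAGhigh, against 9.83 and 9.94 in CLP_RAGlow. Its difference was 0.83 ± 0.18 (limma adjusted p = 0.602). Dtymk, the next kinase after Tk1 in making dTTP, was at -0.55 ± 0.15, and Rrm2, of ribonucleotide reductase, at -1.40 ± 0.35, which turned to 0.05 when probe sets marked as cross-hybridising were left out.

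Mitotic genes had a lower median than replication genes and also varied between replicates. Of 22 measured, 19 were lower in CLP_RAGhigh, with a median of -1.21, and 8 of them had an unadjusted limma p under 0.05, or 36.4%, where 14.0% of the replication genes and 2.94% of all genes tested did. Between CLP_RAGhigh replicate 2 and CLP_RAGlow replicate 1 alone, 11 of the 22 mitotic genes and 33 of the 50 replication genes were lower in CLP_RAGhigh, with medians of 0.05 and -0.18. The median deviation of the mitotic genes was -0.88 and 0.12 on the CLP_RAGhigh arrays, against 0.09 and 0.85 on the CLP_RAGlow arrays. Both lists thus had their lowest array in CLP_RAGhigh replicate 1 and their highest in CLP_RAGlow replicate 2. With probe sets averaged, the medians were -0.72 for the mitotic genes and -0.49 for the replication genes, so the lists lay closer together. With an offset of 32 before log2 they were -0.93 and -0.41. The difference between the lists was not tested.

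**Figure D3:**
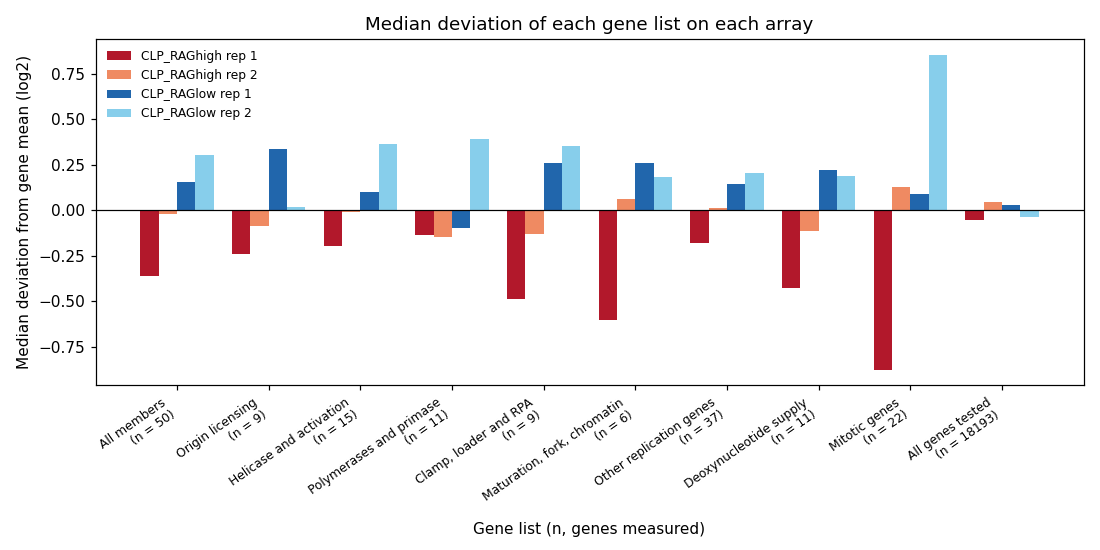
Median deviation from each gene's own mean (log2, vertical axis) on each of the 4 arrays, for the 50 replication genes, their 5 functional groups and 4 other gene sets (horizontal axis, with the number of genes). CLP_RAGhigh replicate 1 is the lowest bar of the 50 members, at -0.36, and of the mitotic genes, at -0.88.

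**Figure D4:**
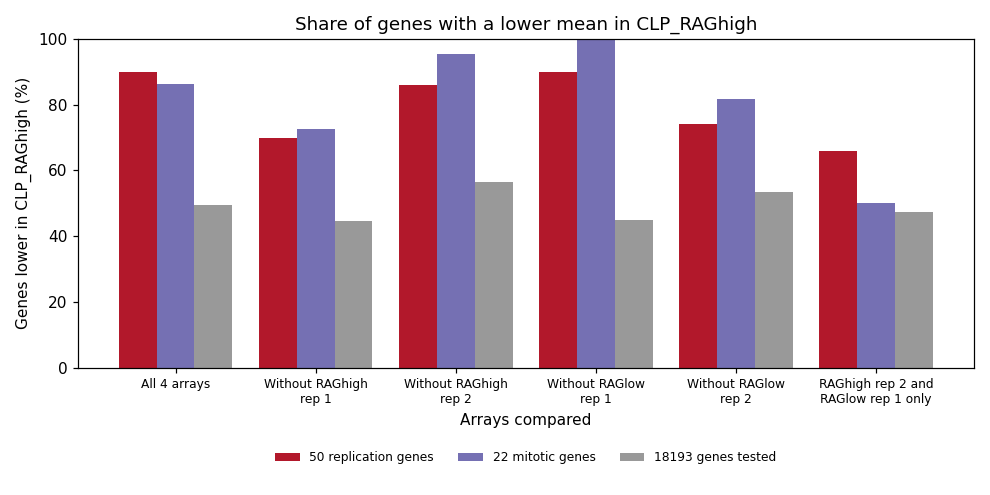
Percent of genes with a lower mean in CLP_RAGhigh (vertical axis, from 0) when all 4 arrays or fewer were compared (horizontal axis), for replication genes, mitotic genes and all genes tested. Replication genes stand at 90.0% with all 4 arrays and at 66.0% with CLP_RAGhigh replicate 2 and CLP_RAGlow replicate 1 alone, where all genes tested stand at 47.4%.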

How the data were processed

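The deposited values are intensity values that the authors computed with RMA (background correction, normalization and summary per probe set), per the design text of the series. For RMA, the software is not given in the sources used here. Because values ran from 2.35 to 19893, they were read as linear and converted to log2. Of 45101 rows, 64 control probe sets, 932 annotated to several genes and 9160 to none were left out, and the brightest probe set was kept for each of 18193 genes. All 50 measured members had group means above 3.88, the array-wide median log2 value. Median intensities were 14.5 to 14.8, and the number of arrays limits the precision.

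For CLP_RAGhigh minus CLP_RAGlow, limma 3.58.1 (R 4.3.3) fitted a linear model with trended empirical Bayes variances. The two-sided tests and the 95% intervals used 2 residual degrees of freedom plus prior ones, with a median of 3.75. Benjamini-Hochberg adjustment was over all genes, at a threshold of 0.05. The script was tested on simulated data. An exact permutation test of 2 arrays against 2 cannot give a p below 0.333. Lists are described by counts and medians, without a test. The members and lists, and the rule for the genes given per array (an unadjusted p under 0.05, or the largest difference of a functional group; in other lists, up to 5 with an unadjusted p under 0.05), were chosen with earlier results of these data known. Other members given per array, and the marker genes named singly, were picked after their values were seen. Alternatives covered probe set choice, cross-hybridising probe sets, dim genes, an offset, normalization, the variance model, a replicate block and each array left out. Over all genes tested, arrays with the same replicate number had a correlation of deviations of -0.02, which does not settle whether they were paired. In each fraction, though, the median deviations of the members and of the mitotic genes were higher on replicate 2 than on replicate 1. A replicate effect shared by these genes was not tested.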

Additional observations from a re-analysis of the deposited data

How the results depend on the processing

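With limma, 0 of the 50 replication genes passed an adjusted p of 0.05 in any of the alternatives that kept all 4 arrays. Over all genes the count of 0 became 2 with probe sets averaged, 1 with dim genes left out and 7 with the replicate block. It was 0 in the other alternatives that kept all arrays. The correlation of deviations between arrays of the same replicate number was -0.02 over all genes tested. That does not settle whether the arrays were paired. With the block 8 members had an unadjusted p under 0.05 and a lower mean, against 7 without it, and 45 were lower in both fits. Without 1 array each, that count ran from 0 to 15, the median over the members from -0.54 to -0.25, and those of the helicase genes from -0.41 to -0.19, the polymerase genes from -0.47 to 0.033, the clamp and RPA genes from -0.87 to -0.45, the maturation and fork genes from -0.86 to -0.20, the other replication genes from -0.38 to -0.31 and the mitotic genes from -1.53 to -0.42. Between CLP_RAGhigh replicate 2 and CLP_RAGlow replicate 1, a comparison added after seeing the data, the medians were -0.18 for the members, -0.11 for the helicase genes, -0.046 for the polymerase genes, -0.10 for the maturation and fork genes, -0.23 for the other replication genes and 0.053 for the mitotic genes. These fits have fewer arrays; the cause was not tested otherwise. Centring arrays on their medians turned Orc1 to 0.045 and Mcm6 to 0.056, and quantile normalization to 0.0086 and 0.0044. Averaging probe sets turned Gins1 to -0.078 and Dbf4 to 0.11. The members that changed sign without 1 array had these ranges: Orc1 -0.34 to 0.32, Orc2 -0.37 to 0.20, Orc3 -0.73 to 0.31, Cdc6 -1.56 to 0.25, Cdt1 -0.76 to 0.0016, Mcm3 -0.29 to 0.60, Mcm4 -0.50 to 0.15, Mcm6 -0.12 to 0.12, Mcm7 -0.41 to 0.019, Cdc45 -0.32 to 0.51, Gins1 -0.35 to 0.50, Gins3 -0.72 to 0.27, Gins4 -0.55 to 0.19, Pola2 -0.20 to 0.065, Prim1 -1.15 to 0.032, Pold1 -0.71 to 0.44, Pold2 -0.83 to 0.048, Pole -1.31 to 0.39, Pole2 -1.34 to 0.40, Pole4 -0.99 to 0.032, Rfc4 -1.60 to 0.20, Chaf1b -0.92 to 0.16. With probe sets averaged, 16 members changed sign or moved by over 1.5 times, as did 3 with an offset of 32 and 4 without cross-hybridising probe sets. The other 394 member values in the alternatives that kept all arrays, and 168 in those that left 1 out, kept their direction. All 4 arrays set the precision, and no detection calls were used.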
